A study of Mus musculus with 12 samples.

Results

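The 10 genes described here encode the enzymes that hydroxylate procollagen and that cross-link the finished collagen and elastin fibres. They were taken from the table of raw counts by gene name: the collagen prolyl 4-hydroxylase alpha subunits P4ha1, P4ha2 and P4ha3, the lysyl hydroxylases Plod1 and Plod2, and the lysyl oxidases Lox, Loxl1, Loxl2, Loxl3 and Loxl4. Each of the 10 names matched 1 of the 54446 rows of the table, and all 10 genes passed the filter on low counts that left 14724 genes for testing.

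Fibrillar collagen is modified at several steps on its way to a fibre. Inside the endoplasmic reticulum, prolyl 4-hydroxylases modify prolines so that the triple helix is stable at body temperature, and lysyl hydroxylases modify lysines that later take part in cross-links. Both enzyme families use molecular oxygen, iron, alpha-ketoglutarate and ascorbate. Outside the cell, the copper-dependent lysyl oxidases oxidise lysines and hydroxylysines, and the resulting aldehydes condense into the cross-links of collagen and elastin. P4ha1, P4ha2, Plod2 and Lox are well-known targets of the hypoxia-inducible transcription factors in fibroblasts, so that oxygen is both a substrate of these enzymes and a regulator of their genes.

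RNA-seq was carried out on NIH3T3 cells, an established line of mouse embryonic fibroblasts, and on dN-VEGF cells derived from it. VEGF-A messenger RNA can also be translated from an upstream start, which adds an N-terminal stretch called N-VEGF. The dN-VEGF line lacks the sequence for that stretch, cut out with Cas9, and retains the AUG from which the shorter VEGF-A is made. Each line was cultured for 16 h either in normoxia or in hypoxia below 0.2% oxygen, with 3 samples in each of the 4 groups, and the comparisons asked how hypoxia changed transcription in each line and where the lines differed. The deletion was made by donor cassettes in isolated biallelic clones that were later treated with VCre to remove the cassettes and sorted; the labels do not say which clone was sequenced, so an effect of the deletion and a property of the clone cannot be told apart.

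The libraries held 30519052 to 43056690 counts, and the values below are CPM, the reads of a gene scaled to the library total with TMM factors. Wild-type normoxia replicate 2 stood apart before any comparison was made: its log2 CPM correlated with replicates 1 and 3 at 0.956 and 0.957, against 0.996 between those replicates. Replicate 2 of dN-VEGF normoxia was less far from its group, with correlations of 0.986. Vegfa, the edited gene, was at 86.2, 39.4 and 82.7 CPM in wild-type normoxia, 272 to 291 in wild-type hypoxia, 34.2 to 37.3 in dN-VEGF normoxia and 419 to 437 in dN-VEGF hypoxia, and a count over the whole gene does not test the deletion. Mfap5, a microfibril gene picked out after its values were seen, stood at 2.62 to 8.28 CPM in all 6 wild-type samples and at no more than 0.188 in all 6 dN-VEGF samples. Mfap4, another microfibril gene seen in the same way, was at 3.08, 0.209 and 2.50 CPM in wild-type normoxia and at 0.172, 3.15 and 0.172 in dN-VEGF normoxia, so in each line replicate 2 stood at the level of the other line. Wild-type normoxia replicate 2 therefore carried the Mfap5 level of its labelled line and Vegfa and Mfap4 levels near those of the other line, and the line of the samples numbered 2 is taken from their labels. The values of the 10 genes are given without wild-type normoxia replicate 2 as well. Of 9 fibroblast markers 7 were above 1 CPM in every sample, Lum and Fap being at or near 0. Epcam was at 0 and Ptprc, Kdr and Cd3e were at or near 0, while Cdh5 reached 24.4 CPM and Krt19 reached 7.84. The summed fibroblast markers were at 11010 to 11550 CPM in wild-type normoxia, 17910 to 19630 in wild-type hypoxia, 10310 to 11520 in dN-VEGF normoxia and 24820 to 26910 in dN-VEGF hypoxia. The 4 endothelial markers summed to 1.81 to 4.23, 5.91 to 8.05, 1.96 to 4.19 and 20.3 to 25.1 CPM in the same order of groups. The 5 epithelial markers summed to at most 8.80 CPM and the 4 blood markers to at most 6.68, both in wild-type hypoxia. These sums moved with hypoxia, and their part in the results below was not tested. The 10 hypoxia control genes, among them Car9, Bnip3 and Egln3, all rose in both lines, with median log2 fold changes of 3.21 in wild-type and 3.75 in dN-VEGF cells.

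Hypoxia raised most of the 10 genes in both lines. In wild-type cells 6 rose (P4ha1, P4ha2, Plod1, Plod2, Lox and Loxl4), 3 fell (P4ha3, Loxl1 and Loxl3) and Loxl2 passed in neither direction, at an adjusted p below 0.05 in edgeR's quasi-likelihood test. Of all tested genes 18.2% rose and 18.3% fell in that comparison. In dN-VEGF cells the 6 genes named as rising in wild-type cells rose as well, P4ha3 and Loxl3 fell, and Loxl1 and Loxl2 did not pass, against 26.9% of all tested genes that rose and 26.4% that fell. The median log2 fold change of the 10 genes was 1.11 in wild-type and 1.54 in dN-VEGF cells, beside -0.07 and -0.01 over all tested genes. The samples of normoxia and hypoxia did not overlap for 9 of the 10 genes in each line, where 45% of all tested genes did not overlap in wild-type and 70.5% in dN-VEGF cells. Without wild-type normoxia replicate 2 all 10 genes passed in wild-type cells, 7 higher and 3 lower, but the share of all genes that passed also grew, to 27.1% higher and 26.9% lower. Scaling to total counts alone moved the median of all genes to -0.30 and -0.41, with 1892 genes higher and 4818 lower in wild-type and 2249 higher and 6550 lower in dN-VEGF cells. On that scale the 10 genes split into 5 higher and 3 lower in dN-VEGF cells. These are cultures of one cell type, and fewer cells expressing a gene cannot be told apart from less RNA per cell.

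**Figure D1:**
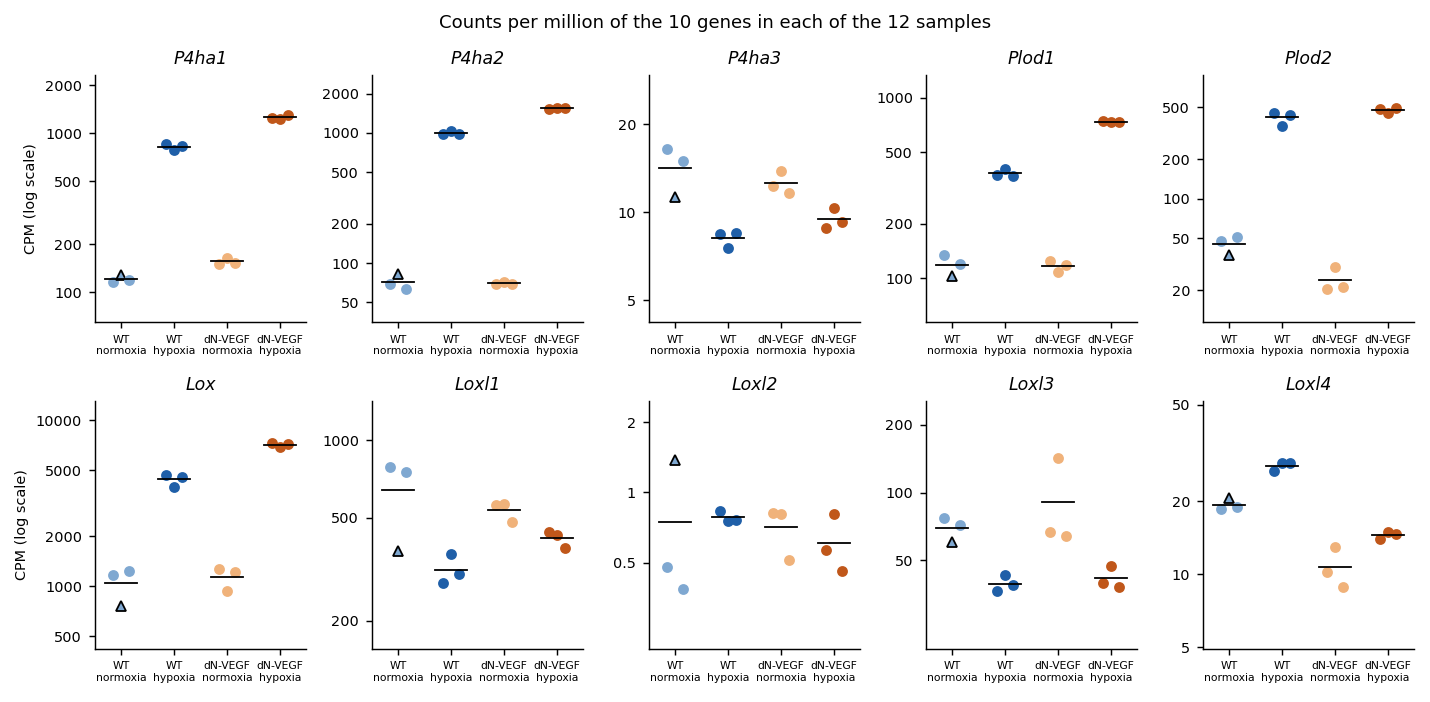
CPM of the 10 genes in each of the 12 samples, on log axes that differ between panels; circles are single samples, the outlined triangle is wild-type normoxia replicate 2 and the horizontal bar is the group mean (n = 3). P4ha1, P4ha2, Plod1, Plod2 and Lox stand far higher in hypoxia than in normoxia in both lines, while Loxl2 stays between 0.385 and 1.37 CPM throughout.

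The stretches upstream of the transcription start are shown for the prolyl hydroxylases and for Plod1. Promoter windows from RefSeq (GRCm38.p6) matched 5 of the 10 genes, these and Loxl4. Each line gives the last 180 bases before the RefSeq start, 5′ to 3′ on the gene's strand, with capitals for the hypoxia response core ACGTG or GCGTG on either strand, so that CACGT and CACGC mark the core on the opposite strand; each strand was counted on its own where cores overlap. The RefSeq start of P4ha2 lies inside the span of the gene as counted, which begins at 54100095 on the plus strand, so its stretch precedes that start and not the first annotated base.
P4ha1, chr10:59323116-59323295, plus strand: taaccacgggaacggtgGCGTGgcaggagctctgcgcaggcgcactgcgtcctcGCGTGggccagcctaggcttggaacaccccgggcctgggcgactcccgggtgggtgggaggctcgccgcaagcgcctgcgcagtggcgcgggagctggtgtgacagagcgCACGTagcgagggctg
P4ha2, chr11:54100744-54100923, plus strand: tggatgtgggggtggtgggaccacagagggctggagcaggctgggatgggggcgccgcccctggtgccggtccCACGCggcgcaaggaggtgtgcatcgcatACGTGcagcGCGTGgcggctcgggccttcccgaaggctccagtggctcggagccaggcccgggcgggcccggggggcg
P4ha3, chr7:100285340-100285519, plus strand: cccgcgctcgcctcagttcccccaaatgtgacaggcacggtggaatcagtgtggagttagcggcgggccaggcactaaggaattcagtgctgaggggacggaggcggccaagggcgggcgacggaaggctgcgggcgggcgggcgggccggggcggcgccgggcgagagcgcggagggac
Plod1, chr4:147936777-147936956, minus strand: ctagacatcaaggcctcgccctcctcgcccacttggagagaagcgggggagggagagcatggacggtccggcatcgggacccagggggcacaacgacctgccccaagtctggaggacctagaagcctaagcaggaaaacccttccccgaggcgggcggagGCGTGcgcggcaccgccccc
In the 250 bases before the start, P4ha1 held 3 cores, whose first bases lie at -163, -126 and -16 from the start. P4ha2 held 3 as well, at -107, -78 and -69, Plod1 held 1 at -20, Loxl4 held 1 at -162, and P4ha3 held none. Of 32851 RefSeq promoters 38.6% held at least 1 core in the same window and 16.7% held 2 or more. ACGTG was present in 16.6% and GCGTG in 28.2% of them. These matches describe letters in the sequence and were not tested for binding or for a link to the response to hypoxia.

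P4ha1 encodes the main alpha subunit of collagen prolyl 4-hydroxylase (ENSMUSG00000019916, chr10:59323296-59373304, plus strand, GRCm38). In wild-type cells it was at 117, 129 and 119 CPM in normoxia and at 851, 779 and 835.5 in hypoxia. In dN-VEGF cells it was at 152, 165 and 153 CPM in normoxia and at 1254, 1228 and 1299 in hypoxia. The groups were far apart, with log2 fold changes of 2.76 ± 0.085 (SE, adjusted p = 4.95e-09) in wild-type and 3.01 ± 0.086 (adjusted p = 1.44e-09) in dN-VEGF cells. That is a rise of 6.76-fold and 8.05-fold. The rise passed in all 20 alternative fits in each line, and its fold exceeds 2 in both.

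P4ha2, the second alpha subunit (ENSMUSG00000018906, chr11:54100095-54131665, plus strand), had the largest rise of the 10 genes in both lines when all samples were fitted. In dN-VEGF cells without normoxia replicate 2, Plod2 instead rose more, by 4.51 against 4.48. The wild-type values of P4ha2 were 68.7, 82.5 and 63.2 CPM in normoxia and 988, 1037 and 982.5 in hypoxia. The dN-VEGF values were 69.0, 71.5 and 69.2 in normoxia and 1537, 1559 and 1539 in hypoxia. Replicate 2 was the highest in wild-type normoxia, where the SD was 13.95% of the mean, against at most 3.00% in the other groups. The log2 fold change was 3.81 ± 0.11 (adjusted p = 2.52e-09) in wild-type and 4.47 ± 0.11 (adjusted p = 6.36e-10) in dN-VEGF cells, or 14.0-fold and 22.1-fold.

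P4ha3 (ENSMUSG00000051048, chr7:100285520-100319699, plus strand), the third alpha subunit, moved the other way. It was a weakly expressed gene at 16.4, 11.3 and 14.9 CPM in wild-type normoxia and 8.41, 7.57 and 8.48 in wild-type hypoxia. Its dN-VEGF values were 12.3, 13.9 and 11.7 in normoxia and 8.87, 10.4 and 9.26 in hypoxia. Normoxia stood above hypoxia in every sample of both lines, with 221 to 774 counts behind each value. Its log2 fold change was -0.80 ± 0.15 (adjusted p = 0.00143) in wild-type and -0.41 ± 0.15 (adjusted p = 0.0348) in dN-VEGF cells. The call in dN-VEGF cells was lost without normoxia replicates 1 or 2 or hypoxia replicates 1 or 3 of that line, where the adjusted p ran from 0.0583 to 0.107, and with at least 10 counts required in every sample (0.0547). With the replicate number as a block its adjusted p was 0.0501.

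Plod1 encodes the lysyl hydroxylase that acts on lysines in the collagen helix (ENSMUSG00000019055, chr4:147909753-147936767, minus strand). Its wild-type values were 133.5, 102 and 120.0 CPM in normoxia and 372, 405 and 366.5 in hypoxia. In dN-VEGF cells the values were 124, 108 and 118 in normoxia and 747.5, 730.2 and 734 in hypoxia. Both lines thus started from overlapping levels and ended at levels that did not overlap. The log2 fold change was 1.68 ± 0.11 (3.21-fold, adjusted p = 7.32e-07) in wild-type and 2.66 ± 0.11 (6.32-fold, adjusted p = 2.06e-08) in dN-VEGF cells.

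Plod2, the lysyl hydroxylase of the telopeptides, where fibril cross-links form, lies at chr9:92542223-92608428 on the plus strand (ENSMUSG00000032374). It was at 47.5, 37.1 and 51.3 CPM in wild-type normoxia and at 454, 361 and 438.5 in wild-type hypoxia. In dN-VEGF cells it was at 20.5, 30.0 and 21.0 in normoxia and at 485, 453.5 and 493 in hypoxia. Here the lines differed at the start and nearly met at the end, the lowest dN-VEGF hypoxia value lying just under the highest wild-type one. Hypoxia raised it by 3.20 ± 0.18 log2 units (9.22-fold, adjusted p = 2.92e-07) in wild-type and by 4.32 ± 0.19 (20.0-fold, adjusted p = 2.82e-08) in dN-VEGF cells. A gene on the opposite strand, Gm38391, shares 346 exon bases with it and held 13 to 61 counts, against 858 to 17480 for Plod2. The library kit does not mark strand, so reads in the shared bases cannot be assigned to either gene.

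Lox, the founding lysyl oxidase (ENSMUSG00000024529, minus strand, from 52516069 to 52529867 on chromosome 18), was the most abundant of the 10 genes. It was at 1162, 756.5 and 1234 CPM in wild-type normoxia and at 4695, 3941 and 4582 in wild-type hypoxia. The dN-VEGF samples were at 1271, 933 and 1213 in normoxia and at 7290, 6887 and 7175 in hypoxia. Replicate 2 was the lowest of its group in all 4 groups, and normoxia and hypoxia did not overlap in either line. The rise was 2.07 ± 0.18 on the log2 scale (4.19-fold, adjusted p = 8.60e-06) in wild-type and 2.64 ± 0.19 (6.25-fold, adjusted p = 8.29e-07) in dN-VEGF cells. In the deposited counts Lox took 0.0766% to 0.149% of all reads in wild-type normoxia and 0.568% to 0.606% in dN-VEGF hypoxia.

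Loxl1 acts on elastin and elastic fibres (ENSMUSG00000032334, chr9:58287738-58313186, minus strand). It was at 789.5, 373 and 754 CPM in wild-type normoxia and at 280.3, 362 and 303 in wild-type hypoxia. Among dN-VEGF samples it was at 563, 565 and 481 in normoxia and at 442, 429 and 381 in hypoxia. The gap in wild-type cells was narrow because normoxia replicate 2 stood only just above the highest hypoxia sample. Its log2 fold change was -1.02 ± 0.23 (adjusted p = 0.00551) in wild-type cells, and -1.29 ± 0.11 (adjusted p = 6.64e-07) without that replicate. The wild-type call was lost when the 6 wild-type samples were fitted alone (adjusted p = 0.0513). In dN-VEGF cells the value was -0.36 ± 0.23 (adjusted p = 0.208), which passed without wild-type normoxia replicate 2 (adjusted p = 0.00493), since all groups share 1 estimate of spread, without both normoxia samples numbered 2 (adjusted p = 0.00231), with only the dN-VEGF samples fitted (adjusted p = 0.00465) and with total counts as the scale (-0.76, adjusted p = 0.0273).

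Loxl2 (ENSMUSG00000034205, chr14:69609068-69695834, plus strand), known from tumour and fibrosis work as a hypoxia-responsive collagen cross-linker, was barely detected, with 15 to 59 counts per sample. It was at 0.479, 1.37 and 0.385 CPM in wild-type normoxia and 0.831, 0.753 and 0.765 in wild-type hypoxia. The dN-VEGF samples gave 0.818, 0.805 and 0.515 in normoxia and 0.564, 0.804 and 0.460 in hypoxia. The ranges overlapped in both lines. Its log2 fold changes were 0.08 ± 0.43 (adjusted p = 0.897, 95% interval -0.87 to 1.04) in wild-type and -0.23 ± 0.45 (adjusted p = 0.689, -1.22 to 0.76) in dN-VEGF cells. The wild-type value turned to -0.09 on total counts and rested on normoxia replicate 2, without which it was 0.87 (adjusted p = 0.0256), while leaving out normoxia replicates 1 or 3 turned it to -0.15 and -0.24.

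Loxl3 (ENSMUSG00000000693, chr6:83034173-83052562, plus strand) fell in both lines. It was at 77.4, 60.2 and 71.8 CPM in wild-type normoxia and at 36.5, 42.98 and 38.7 in wild-type hypoxia. In the dN-VEGF line it was at 66.9, 142 and 64.4 in normoxia and at 39.8, 47.1 and 38.0 in hypoxia. The dN-VEGF normoxia replicate 2 stood far above the others of its group, and no normoxia sample overlapped a hypoxia sample. The log2 fold change was -0.83 ± 0.26 (adjusted p = 0.0289) in wild-type and -1.13 ± 0.26 (adjusted p = 0.00393) in dN-VEGF cells, the latter -0.66 without both normoxia samples numbered 2. In wild-type cells the call was lost when normoxia replicates 1 or 3 or any of the hypoxia replicates was left out, with adjusted p from 0.0594 to 0.0953. Loxl3 shares 535 exon bases with Htra2 on the opposite strand, which had 423 to 3011 counts. Reads in the shared bases cannot be assigned to either gene, and how they were counted is not given.

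Loxl4 (ENSMUSG00000025185, chr19:42593982-42612813, minus strand) rose slightly in both lines. It was at 18.7, 20.6 and 18.9 CPM in wild-type normoxia and at 26.6, 28.8 and 28.8 in wild-type hypoxia. In dN-VEGF cells it was at 10.2, 12.9 and 8.87 in normoxia and at 14.0, 14.99 and 14.6 in hypoxia. Every hypoxia sample was above every normoxia sample of its line, and every dN-VEGF sample was below every wild-type sample at the same oxygen level. The log2 fold change was 0.54 ± 0.13 (1.45-fold, adjusted p = 0.00699) in wild-type and 0.45 ± 0.13 (1.36-fold, adjusted p = 0.0132) in dN-VEGF cells. In dN-VEGF cells the rise was 0.05 (adjusted p = 0.732) on total counts and 0.35 (adjusted p = 0.113) with no filter on low counts. It also missed the threshold without dN-VEGF normoxia replicate 1 (adjusted p = 0.0537) or 3 (0.0637).

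Without wild-type normoxia replicate 2 the response to hypoxia in the wild type kept its direction for all 10 genes. The log2 fold change was then 2.81 for P4ha1, 3.93 for P4ha2 and -0.93 for P4ha3. The lysyl hydroxylases stood at 1.60 for Plod1 and 3.09 for Plod2. Among the lysyl oxidases it was 1.88 for Lox, -1.29 for Loxl1, 0.87 for Loxl2, -0.92 for Loxl3 and 0.59 for Loxl4. All 10 passed in that fit, Loxl2 being the gene that did not pass with all samples.

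**Figure D2:**
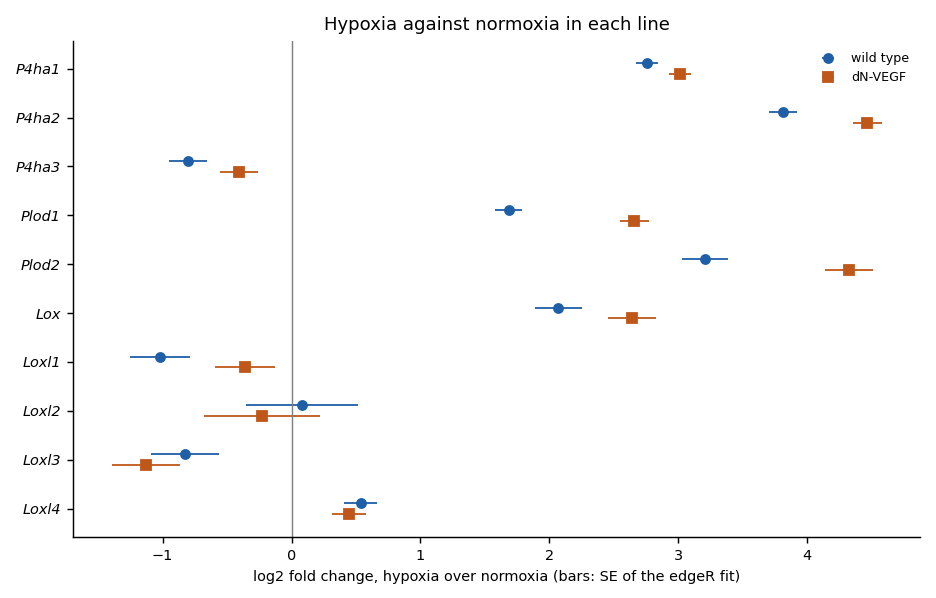
Log2 fold change of each gene in hypoxia over normoxia, for wild-type (circles) and dN-VEGF cells (squares); bars are the standard error of the edgeR fit over 12 samples. P4ha2 has the highest value in both lines (3.81 and 4.47), Loxl1 the lowest in wild-type (-1.02) and Loxl3 the lowest in dN-VEGF cells (-1.13).

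In normoxia the lines differed at 3 of the 10 genes, P4ha1 being higher in dN-VEGF cells and Plod2 and Loxl4 lower. Of all tested genes 1.39% were higher and 2.97% lower. The same 3 genes were those whose samples did not overlap between the lines, beside 16.3% of all tested genes, and the median log2 difference of the 10 genes was -0.04 against -0.03 over all genes. Plod2 was lower by a log2 difference of -0.93 ± 0.17 (adjusted p = 0.0123) and Loxl4 by -0.86 ± 0.13 (adjusted p = 0.00529). P4ha1 was higher by 0.36 ± 0.080 (adjusted p = 0.0294). Same-numbered normoxia samples of the lines deviated together, chiefly replicate 2 against replicates 1 and 3, and with the numbers as a block in the 12-sample fit the 3 genes passed at adjusted p of 0.0434 for P4ha1, 0.0289 for Plod2 and 0.00665 for Loxl4. In a block fit of the 6 normoxia samples alone, chosen after the data were seen, none of the 10 genes passed and 1 gene of all passed, with adjusted p of 0.227 for P4ha1, 0.247 for Plod2 and 0.155 for Loxl4. Those 6 samples fitted without the block gave 15 genes of all and none of the 10.

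Calls in this comparison were sensitive to single libraries, and so was the share of all genes called. P4ha1 kept its call without wild-type normoxia replicate 2 (0.42 ± 0.070, adjusted p = 3.66e-04) or wild-type hypoxia replicate 2. It lost the call without any other of the 12 samples, at adjusted p of 0.0560 to 0.123. Its log2 difference stayed at 0.33 to 0.42 over the 12 fits. In the fits that lost the call 1.1% to 4.18% of all genes were called, against 4.36% with all samples. Plod2 lost its call without wild-type normoxia replicate 3 (adjusted p = 0.0517), dN-VEGF normoxia replicate 1 (0.0690) or replicate 3 (0.0697). Loxl4 passed without each of the 12 samples in turn. When wild-type normoxia replicate 2 was left out, 5 of the 10 genes passed: P4ha1 higher, and P4ha3 (-0.30 ± 0.11, adjusted p = 0.0339), Plod2, Loxl1 (-0.51 ± 0.11, adjusted p = 0.00206) and Loxl4 lower. In that fit 25.7% of all genes were higher and 23.2% lower, so the members' share was 1 of 10 against 25.7% and 4 of 10 against 23.2%. P4ha2, Plod1, Lox, Loxl2 and Loxl3 passed in none of the 21 alternatives in normoxia. The log2 differences were -0.03 ± 0.098 for P4ha2, -0.02 ± 0.10 for Plod1 and 0.12 ± 0.18 for Lox, and each changed sign under at least 1 alternative.

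In hypoxia 4 of the 10 genes were higher in dN-VEGF cells and 1 was lower, beside 10.8% and 9.36% of all tested genes. The lines did not overlap for 7 of the 10 genes, against 59.8% of all tested genes. The median log2 difference of the 10 was 0.31, beside -0.01 over all genes, which moved to -0.23 on total counts with 673 genes higher and 3272 lower instead of 1583 and 1378. Plod1 showed the largest gain, 0.95 ± 0.10 on the log2 scale (1.93-fold, adjusted p = 2.62e-04). P4ha2 was higher by 0.62 ± 0.097 (1.54-fold, adjusted p = 0.00178) and P4ha1 by 0.62 ± 0.080 (1.53-fold, adjusted p = 6.82e-04). Lox was higher by 0.69 ± 0.18 (adjusted p = 0.0193), but missed the threshold on total counts (0.47, adjusted p = 0.134). It missed it as well without wild-type hypoxia replicates 2 or 3 or any dN-VEGF hypoxia replicate, at 0.0501 to 0.0714. Loxl4 was lower, by -0.95 ± 0.13 (adjusted p = 9.18e-04). P4ha1, P4ha2, Plod1 and Loxl4 passed in all 20 alternative fits. None of the 10 genes passed when a fold change of at least 2 was also required, and the share of all genes at that fold was not counted.

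The other 5 genes did not pass in hypoxia. Plod2, which was lower in dN-VEGF normoxia, stood at 0.19 ± 0.16 (adjusted p = 0.460, 95% interval -0.17 to 0.55) and turned to -0.03 on total counts. It passed with only the groups compared (0.18, adjusted p = 0.0407) and without both normoxia samples numbered 2 (0.19, adjusted p = 0.0209). P4ha3 stood at 0.22 ± 0.15 (adjusted p = 0.337) and Loxl3 at 0.08 ± 0.26 (adjusted p = 0.867), both turning negative on total counts (-0.0026 and -0.14), and P4ha3 passed without both normoxia samples numbered 2 (adjusted p = 0.0449). Loxl1 was at 0.40 ± 0.23 (adjusted p = 0.253) and passed without wild-type normoxia replicate 2 (adjusted p = 0.00581), without both normoxia samples numbered 2 (2.41e-04) and with only the hypoxia groups fitted (4.96e-04). Loxl2 was at -0.36 ± 0.45 (adjusted p = 0.628).

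**Figure D3:**
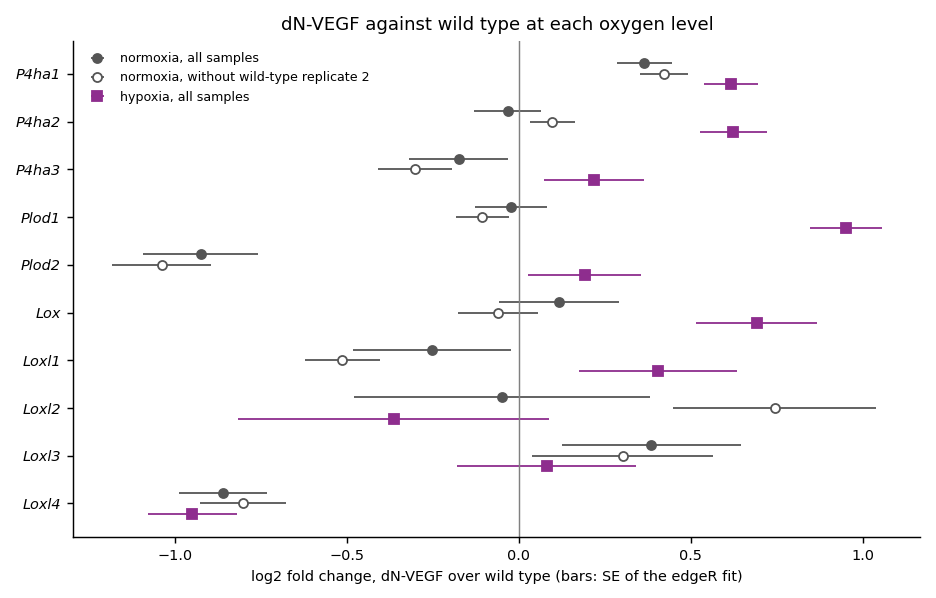
Log2 fold change of each gene in dN-VEGF over wild-type cells, in normoxia with all samples (filled circles), in normoxia without wild-type replicate 2 (open circles) and in hypoxia (squares); bars are the standard error of the edgeR fit. Loxl4 is lower in dN-VEGF cells at both oxygen levels (-0.86 and -0.95), and Plod1 moves from -0.02 in normoxia to 0.95 in hypoxia.

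Whether the response to hypoxia itself differed between the lines was tested by the interaction term, the dN-VEGF response minus the wild-type response. This term uses the samples of the comparisons above, so the values are set side by side and do not support each other. It passed for 3 of the 10 genes, each with the larger response in dN-VEGF cells, where 2.21% of all genes had a higher and 1.15% a lower response. Plod1 had a difference of 0.97 ± 0.15 (adjusted p = 0.00889), which passed in all 19 alternative fits but is under the 2-fold change set as a further alternative, where Plod2 alone of the 10 passed. For Plod2 it was 1.12 ± 0.23 (adjusted p = 0.0308) and for P4ha2 0.66 ± 0.14 (adjusted p = 0.0312). Both missed the threshold without most single libraries: P4ha2 without each of 9 libraries, at adjusted p of 0.0663 to 0.110, the exceptions being wild-type normoxia replicates 2 and 3 and dN-VEGF normoxia replicate 2. Plod2 missed it without each of 10 libraries, at 0.0718 to 0.0975, the exceptions being the normoxia replicates 2 of both lines. In the fits that lost their calls P4ha2 stayed at 0.64 to 0.68 and Plod2 at 1.01 to 1.17. The share of all genes called in those fits was 0.493% to 1.24%, against 3.36% with all samples. On total counts Plod2 was at 0.96 (adjusted p = 0.0526), with the replicate block at 1.11 (adjusted p = 0.0502), and with no filter on low counts P4ha2 was at 0.57 (adjusted p = 0.115).

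Lox (0.58 ± 0.25, adjusted p = 0.216), Loxl1 (0.66 ± 0.33, adjusted p = 0.280), P4ha1 (0.25 ± 0.11, adjusted p = 0.228) and P4ha3 (0.39 ± 0.21, adjusted p = 0.303) did not pass. Without wild-type normoxia replicate 2 the responses of 7 genes differed, 6 being larger in dN-VEGF cells (P4ha2, P4ha3, Plod1, Plod2, Lox and Loxl1) and Loxl2 smaller. P4ha1 passed without both normoxia samples numbered 2 (0.23, adjusted p = 0.0166). In the fit without the wild-type sample alone 21.4% of all genes had a higher and 23% a lower response. Lox was then at 0.75 ± 0.16 (adjusted p = 0.00187) and Loxl1 at 0.92 ± 0.15 (adjusted p = 3.31e-04). Loxl2 went to -1.11 ± 0.40 (adjusted p = 0.0377) on few counts. For Loxl3 (-0.31 ± 0.37) and Loxl4 (-0.09 ± 0.18) the interaction passed in none of the 19 alternatives.

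Levels were compared between genes as TPM, which divides each count by the exon length of the gene in GENCODE M21. Lox led in all 4 groups, at group means of 827.5 TPM in wild-type normoxia, 2917 in wild-type hypoxia, 839.5 in dN-VEGF normoxia and 4096 in dN-VEGF hypoxia. Loxl1 came second in normoxia, at 735 TPM in wild-type cells, where its samples overlapped those of Lox, and at 569 in dN-VEGF cells, where they did not. In hypoxia P4ha1 (632 and 842.5 TPM in wild-type and dN-VEGF cells) and P4ha2 (508 and 681) stood between Lox and Loxl1 (302 and 348). Plod2 was above Plod1 in wild-type hypoxia (245 against 178) and below it in dN-VEGF hypoxia (243 against 299.6). The lowest places were held by Loxl4 and P4ha3 (8.23 to 21.1 TPM) and by Loxl2 (0.309 to 0.484). Neighbours in the order did not overlap between samples in either hypoxia group. In wild-type normoxia Plod1 and Loxl3, Loxl3 and P4ha2, and P4ha3 and Loxl4 overlapped, and in dN-VEGF normoxia Loxl3 and Plod1, and Plod2 and P4ha3. Lox made up 42.1% to 44.7% of the summed TPM of the 10 genes in wild-type normoxia, 57.4% to 61.8% in wild-type hypoxia, 40.8% to 51.9% in dN-VEGF normoxia and 61.9% to 62.9% in dN-VEGF hypoxia. Among all genes ranked by TPM, it stood at rank 129 to 269 in wild-type normoxia, 43 to 54 in wild-type hypoxia, 147 to 209 in dN-VEGF normoxia and 29 to 32 in dN-VEGF hypoxia.

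The 10 genes did not share 1 pattern over the 12 samples. Likeness was measured as the root mean square difference of log2 CPM after each gene was centred on its own mean. The closest pairs among the 10 were Plod1 with Lox at 0.20 and P4ha3 with Loxl1 at 0.21, the first of genes that rose and the second of genes that were lower in hypoxia. Among 8514 other genes with a mean of at least 10 CPM, the nearest to P4ha1 was Kdm3a, a histone demethylase, at 0.069. Kdm4b, another histone demethylase, was nearest to Lox at 0.14, and Stc1, the secreted glycoprotein stanniocalcin, was nearest to P4ha2 at 0.18. Bhlhe41, a transcriptional repressor, was nearest to Plod2, but at a distance of 0.30. The nearest to Plod1 was Zfp46 at 0.10, to P4ha3 Snn at 0.10 and to Loxl4 Sh3bp4 at 0.14. Loxl1 was nearest to Tapbp at 0.16, Loxl3 to Sgsh at 0.18 and Loxl2 to Urm1 at 0.21. These distances describe the 12 samples, which share their groups and scaling, and carry no test.

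Other genes of collagen and elastic fibre assembly were followed as 6 lists of 52 genes, 41 of which were tested. Of these 41, 18 were up and 6 down with hypoxia in the wild type and 25 rose and 6 fell in dN-VEGF cells, and in hypoxia 20 were higher and 1 lower in dN-VEGF than in wild-type cells. On total counts these splits were 10 and 9, 17 and 7, and 8 and 4. The shares of all genes higher and lower on that scale were 12.8% and 32.7%, 15.3% and 44.5%, and 4.57% and 22.2%. In the main fit the median log2 fold changes of the 41 were 0.34, 0.69 and 0.41 in these comparisons. Of all tested genes 18.2% were higher and 18.3% lower in wild-type hypoxia, 26.9% and 26.4% in dN-VEGF hypoxia, and 10.8% and 9.36% in dN-VEGF against wild-type hypoxia, and the counts of each list are to be read against these shares.

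Of 8 tested partners of the hydroxylases 6 were higher and 1 lower in wild-type hypoxia (median log2 fold change 0.40) and 6 rose and 2 fell in dN-VEGF cells (0.66). P4hb, protein disulfide isomerase and the beta subunit of prolyl 4-hydroxylase, was at 1112 to 1236 CPM in wild-type normoxia and at 7417 to 7742 in wild-type hypoxia. In dN-VEGF cells it was at 1228 to 1449 and at 11020 to 11490, and its log2 fold changes were 2.70 and 3.11. P3h3, of the prolyl 3-hydroxylase family, rose by 1.23 in wild-type and 1.64 in dN-VEGF cells. Colgalt1, which glycosylates hydroxylysine, fell by 0.50 and 0.66, and Crtap, the partner of prolyl 3-hydroxylase, fell by 0.43 in dN-VEGF cells. In hypoxia 4 of the 8 were higher in dN-VEGF cells, led by P4hb at 0.58 and P3h1 at 0.58. Of the chaperones and export factors of procollagen, 4 of 6 rose in wild-type and 5 of 6 in dN-VEGF cells and none fell. Serpinh1, the collagen chaperone, rose by 0.75 and 1.34, Sec23a, of the vesicle coat that carries procollagen, by 0.51 in wild-type cells, and Fkbp14, a prolyl isomerase, by 1.13 in dN-VEGF cells. In hypoxia 2 of the 6 were higher in dN-VEGF cells, Sec23a by 0.59 and Serpinh1 by 0.41.

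Among 5 tested genes of procollagen cleavage none rose, Bmp1, the C-propeptide protease, fell by 0.82 in wild-type cells (-1.08 without normoxia replicate 2), and Pcolce, its enhancer, fell by 0.55 in dN-VEGF cells. No cleavage gene passed between the lines in hypoxia with all samples. Without wild-type normoxia replicate 2, 2 of them were lower in dN-VEGF hypoxia, in a fit where 21.2% of all genes were lower. Of 5 genes of copper and ascorbate supply, Atp7a, the copper pump that loads lysyl oxidases, rose by 1.18 in wild-type and 2.22 in dN-VEGF cells and was higher by 0.98 in dN-VEGF hypoxia. Its CPM was 10.9 to 19.8 in wild-type normoxia, 33.7 to 41.8 in wild-type hypoxia, 13.9 to 17.6 in dN-VEGF normoxia and 71.5 to 76.6 in dN-VEGF hypoxia. In dN-VEGF cells Atox1, the copper chaperone of Atp7a, fell by 0.61. Slc23a2, an ascorbate transporter, was called higher by 0.35 (adjusted p = 0.0460), at 33.4, 22.5 and 31.4 CPM in normoxia and 36.7 to 37.4 in hypoxia. Without dN-VEGF normoxia replicate 2 it was at 0.18 (adjusted p = 0.121).

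The fibrillar collagen chains, the substrates of these enzymes, gave different counts in the 2 lines. Of 8 tested chains 2 rose (Col5a1 by 0.80, Col5a2 by 0.34) and 2 fell (Col3a1 at -2.20, Col27a1 at -1.30) in wild-type cells, beside 18.2% and 18.3% of all genes, and the median was 0.01. In dN-VEGF cells 7 rose, led by Col11a2 at 2.46 and Col5a3 at 2.03, and Col27a1 fell by 0.55, giving a median of 1.504, where 26.9% of all genes rose and 26.4% fell. The interaction passed for 3 of the 8, all with the larger response in dN-VEGF cells, beside 2.21% of all genes higher and 1.15% lower. Col3a1 and Col5a1 lost that call when any single sample other than a normoxia replicate 2 was left out, at adjusted p of 0.0558 to 0.0904. In those fits 0.493% to 1.24% of all genes were called, against 3.36% with all samples. In hypoxia 6 of the 8 were higher in dN-VEGF cells, Col1a1 by 1.58 and Col3a1 by 1.57, beside 10.8% of all genes. Col1a2, Col3a1 and Col11a2 lost that call when any single hypoxia sample was left out, at adjusted p of 0.0702 to 0.130. In those fits 10.1% to 13.7% of all genes were called, against 20.1% with all samples. Wild-type normoxia replicate 2 weighed on the values of the chains. Col3a1 was at 2245, 336 and 2179 CPM in wild-type normoxia, 341 to 348 in wild-type hypoxia, 370.3 to 397.5 in dN-VEGF normoxia and 1011 to 1044 in dN-VEGF hypoxia. When that sample was left out, 2 chains were called higher and 5 lower in wild-type hypoxia, beside 27.1% and 26.9% of all genes in that fit. Col3a1 was then at -2.67. The interaction then passed for all 8, each higher, beside 21.4% of all genes higher and 23% lower.

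Of 9 tested elastic fibre and matrix partners of the lysyl oxidases 5 rose and 2 fell in the wild type, 5 rose and 1 fell in dN-VEGF cells, and 7 were higher and 1 lower in dN-VEGF hypoxia. The shares of all genes were 18.2% and 18.3%, 26.9% and 26.4%, and 10.8% and 9.36% in the same order. Efemp2, a fibulin that binds Lox, rose by 1.04 and 2.04, and Fbn1, the microfibril protein fibrillin, fell by 1.01 and 1.16. Some of the listed genes that passed rest on few reads. Mfap5 rose by 1.08 in wild-type cells. In dN-VEGF cells it had 1 to 3 counts per sample in normoxia and 4 to 6 in hypoxia and passed the filter on low counts through the wild-type samples, so its call there is not read as a rise, which leaves 4 of the other 8 genes higher and 1 lower. Mfap5, the 1 lower gene between the lines in hypoxia, was at 0.129 to 0.188 CPM in dN-VEGF cells against 7.26 to 8.28. There too it passed the filter through the wild-type samples. Mfap4, a microfibril-associated protein, was called lower in wild-type hypoxia, at 0.0343 to 0.182 CPM against 3.08, 0.209 and 2.50 in normoxia (log2 fold change -4.09, and -4.60 without normoxia replicate 2). It was higher in dN-VEGF hypoxia, at 2.76 to 3.83 CPM, while dN-VEGF normoxia was at 0.172, 3.15 and 0.172. Postn, periostin, was also called higher in dN-VEGF hypoxia, at 0.920 to 1.16 CPM against 0.0519 to 0.102. Of the 7 called higher there, Mfap4, Ltbp4, Fn1 and Postn each lost the call without wild-type hypoxia replicate 1. The adjusted p was then 0.072 to 0.102, in a fit where 10.3% of all genes were called against 20.1% with all samples. Mfap4, Postn and Mfap5 were near 0 in 1 of the lines in hypoxia, so the counts of 7 and 1 are not read as a result on their own. Without wild-type normoxia replicate 2 the counts in wild-type hypoxia were 6 higher and 1 lower for the hydroxylase partners, 4 and 1 for the chaperones, 1 and 2 for cleavage, 5 and 3 for the elastic fibre partners and 1 and 0 for copper and ascorbate, in a fit where 27.1% of all genes were higher and 26.9% lower. Some list genes named here lost a call without at least 1 single sample, at adjusted p of 0.0502 to 0.151. They were Colgalt1 and Mfap4 in wild-type hypoxia, and Crtap, Pcolce, Col1a2, Col3a1, Col27a1, Mfap5, Atox1 and Slc23a2 in dN-VEGF hypoxia. Between the lines in hypoxia they were Col1a2, Col3a1, Col11a2, Mfap4, Ltbp4, Fn1 and Postn. Between the lines in normoxia they were Crtap, Col3a1, Col5a2 and Col27a1, and for the interaction Serpinh1, Col3a1, Col5a1 and Efemp2.

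**Figure D4:**
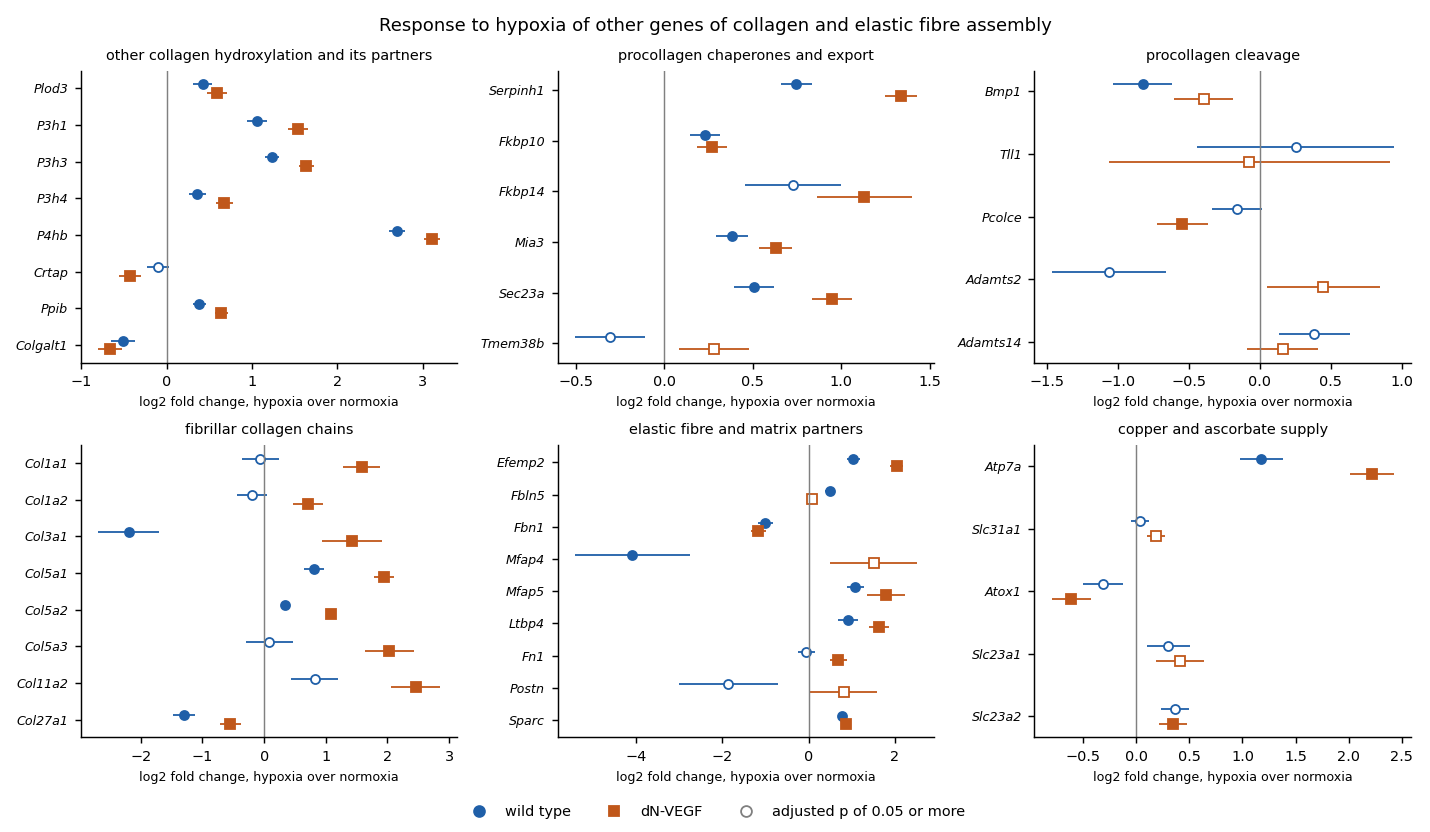
Log2 fold change in hypoxia over normoxia of the tested genes of the 6 lists, for wild-type (circles) and dN-VEGF cells (squares); bars are the standard error of the edgeR fit and open symbols mark an adjusted p of 0.05 or more. P4hb reaches 2.70 and 3.11, and Col3a1 lies at -2.20 in wild-type and 1.43 in dN-VEGF cells.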

How the data were processed

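Total RNA was extracted with Trizol and libraries were made with the TruSeq RNA kit v2, which does not mark strand. The submitters' processing notes name FastQC 0.11.5, Trim Galore with cutadapt 1.10, TopHat2 2.1.0 with Bowtie2 2.2.6, HTSeq 0.6.1 and DESeq2 1.18.1. The authors deposited raw counts of reads per gene, 1 column per sample, with Ensembl gene identifiers and coordinates of GRCm38. The strand setting and the counting of reads shared by overlapping genes are not given in the sources used here.

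The 10 genes and the pathway lists were chosen with earlier results of these data known, and no list supports a direction on its own. Counts were analysed in edgeR 4.0.16 (filterByExpr, TMM scaling, quasi-likelihood F test, 1 mean per group over 12 samples), with Benjamini-Hochberg adjustment over 14724 genes and an adjusted p below 0.05 as the threshold, with no fold threshold. The errors beside log2 fold changes are standard errors of that fit, with n = 3 per group. All 10 genes were named, and from each pathway list up to 2 with the largest rise and up to 2 with the largest fall that passed, in each hypoxia comparison and between the lines in hypoxia. Labels call the samples triplicates without saying whether cultures were independent, so p-values measure the spread between these samples. The closest pair of replicates still differed by 2.86 in chi-square per gene, above sampling noise.

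Pairing was checked by correlating how samples with the same number departed from the means of their groups. In the normoxia comparison of the lines every pair exceeded 0.1 (mean 0.41, lowest 0.355, mean of other pairs -0.166), so a block on the numbers was fitted there. The labels name no shared batch, and the check ties replicate 2 to replicate 2 only: replicates 1 and 3 of different lines correlated at 0.347 and 0.358, about as well as the same numbers did (0.378 and 0.355). In the other comparisons the mean was 0.013 to 0.073. TPM used exon lengths of GENCODE M21. Alternatives were DESeq2 1.42.0, RLE size factors, total counts, the replicate block, no filter on low counts, a minimum of 10 counts in each sample, only the groups compared, each sample left out, both normoxia samples numbered 2 left out, and a fold change of at least 2. Protein sequences and the promoters of the other 5 genes were not analysed here.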

Additional observations from a re-analysis of the deposited data

Results flagged for a closer look

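The response to hypoxia differed between the lines for 3 of the 10 genes by the test of the difference itself, the interaction term of edgeR's quasi-likelihood fit, where 2.21% of all tested genes had a higher and 1.15% a lower response. The dN-VEGF response exceeded the wild-type response by 0.66 log2 units for P4ha2, 0.97 for Plod1 and 1.12 for Plod2. In each case the wild-type and dN-VEGF responses were themselves called, at 3.81 and 4.47 for P4ha2, 1.68 and 2.66 for Plod1, and 3.20 and 4.32 for Plod2. Between the lines, Plod2 was at -0.93 in normoxia and 0.19 in hypoxia, Plod1 at -0.02 and 0.95, and P4ha2 at -0.03 and 0.62. Wild-type normoxia replicate 2, the library that stood apart, is part of all 3 values. Without it they were 0.53, 1.06 and 1.23, with adjusted p of 3.73e-04, 7.63e-06 and 2.71e-04, in a fit where 21.4% of all genes had a higher and 23% a lower response. The call of Plod1 held without each of the 12 samples in turn. Its difference is under a 2-fold change, and at that threshold Plod2 alone was called. The call of P4ha2 was lost without 9 of the 12 and that of Plod2 without 10. In those fits 0.493% to 1.24% of all genes were called, against 3.36% with all samples. Plod2 also missed the threshold on total counts (adjusted p = 0.0526) and with the replicate block (0.0502).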

How the results depend on the processing

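For a gene in a comparison, direction and call were unchanged in 189 of 200 alternative fits for hypoxia in wild-type cells, 186 of 200 in dN-VEGF cells, 172 of 210 between the lines in normoxia, 184 of 200 in hypoxia and 154 of 190 for the interaction. The counts of the 10 genes in hypoxia, 9 and 8, ran from 8 to 10 and from 6 to 9 when single samples were left out. Between the lines in normoxia the count of 3 became 0 with only the groups compared, 0 with the replicate block on the 6 normoxia samples, 5 without both normoxia samples numbered 2, 0 at a fold change of at least 2, and 1 to 5 with single samples left out. In hypoxia the count of 5 became 8 without both normoxia samples numbered 2 and 0 at that fold, and ran from 4 to 6 with single samples left out. The interaction count of 3 became 8 and 1 under the same settings and 1 to 7 with single samples left out. For a fold change of at least 2 the share of all genes was not counted. The share of all genes called moved too: without both samples numbered 2 it was 65.3% instead of 36.5% in wild-type hypoxia, 53.6% instead of 4.36% between the lines in normoxia, 55.8% instead of 20.1% in hypoxia and 52.8% instead of 3.36% for the interaction. With only the groups compared it was 23.8%, 0.108% and 57% in the first 3 of these, and with DESeq2 it was 10.3% for the interaction. The replicate block over all 12 samples gave 9, 7, 3, 5 and 2 called genes in the 5 comparisons; it ended the calls of P4ha3 in dN-VEGF cells and of Plod2 in the interaction and no other.

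Of the pathway genes called in wild-type hypoxia, 24 became 14 with only the groups compared, 37 without both normoxia samples numbered 2 and 10 at a fold change of at least 2; in dN-VEGF hypoxia 31 became 16 at that fold. Between the lines in normoxia 7 became 4 with the replicate block, 1 with only the groups compared, 0 with the block on 6 samples, 28 without both samples numbered 2, 3 at that fold and 2 to 20 with single samples left out. In hypoxia 21 became 12 on total counts, 33 with only the groups compared, 34 without both samples numbered 2, 7 at that fold and 13 to 30 with single samples left out. For the interaction 5 became 15 with DESeq2, 3 on total counts, 30 without both samples numbered 2, 2 at that fold and 1 to 24 with single samples left out.

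All values that changed sign had missed the threshold. Between the lines in normoxia, P4ha2 went from -0.03 to 0.047 with no filter, 0.079 without both samples numbered 2, and -0.11 to 0.097 with single samples left out. Plod1 went to 0.058 with no filter and -0.11 to 0.071 with single samples left out, and Lox to -0.061 to 0.25. Loxl2 went to 0.026 with no filter, 0.046 with the replicate block, 0.11 with the block on 6 samples, 0.66 without both samples numbered 2 and -0.37 to 0.74 with single samples left out. Loxl3 went to -0.17 without both samples numbered 2 and -0.081 to 0.59 with single samples left out. In hypoxia, total counts turned P4ha3 to -0.0026, Plod2 to -0.029 and Loxl3 to -0.14, and Loxl3 ran from -0.020 to 0.15 with single samples left out. Loxl2 in wild-type hypoxia was -0.091 on total counts and -0.24 to 0.87 with single samples left out. In the interaction, Loxl3 went to 0.25 and Loxl4 to 0.0095 without both samples numbered 2, and single omissions gave -1.11 to 0.0051 for Loxl2, -0.51 to 0.16 for Loxl3 and -0.22 to 0.062 for Loxl4. The cause was not tested. The low counts of Loxl2 (15 to 59) limit its precision. A library left out leaves the other 2 of its group to carry its mean.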
